A study of Mus musculus with 106 samples.

Results

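The liver at 22 °C is described here by the genes that set it apart from 7 other tissues of mice housed alike: interscapular brown fat (iBAT, labelled BAT), inguinal subcutaneous fat (ingSAT, labelled SAT), perigonadal visceral fat (pgVAT, labelled VAT), brain, hypothalamus, ileum and spleen. The plots use the labels. The 3 liver libraries of mice at room temperature were set against 20 libraries of the other tissues across all genes of one table, so 23 of the 106 libraries of the series enter the comparison. No gene was chosen by its level: of 21647 genes in the table, the 15867 with an average log2 CPM (counts scaled to a common library size) above 0 were tested, and a liver gene is one that differed from every one of the 7 tissues. The study asked how the transcriptomes of mouse tissues change when animals are housed in the cold or in the warmth, and the 22 °C libraries are its controls.

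All libraries came from wild type mice, C57BL/6 per the labels and male C57BL/6J per the study's methods, that were 8 weeks old when the housing began and are labelled as 11 weeks old. The groups follow the titles and the treatment label, which give room temperature (22 °C in the methods), although a further protocol field of the labels names 34 °C for every library. None of the groups compared carries a transgene or received a drug. The mice had free access to chow, and the hour of collection and any fast before it are not given in the sources used here, so the feeding state behind the glucose and ketone body genes below is not known. Each library pools the tissue of 2 mice, so a library is not one animal, and the labels do not say whether libraries with the same number share mice. There are 3 libraries for each tissue except brain, for which replicates 1 and 3 were used and replicate 2 was left out for the reason given with its values. The liver libraries held 16243271, 16292894 and 16534838 counts, and the 20 others ranged from 4262403 in one pgVAT library to 25964912. The tissues are bulk samples, so fewer cells of a type and less RNA in each cell cannot be told apart.

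Most of the liver's mass is hepatocytes, which make nearly all proteins of blood plasma, assemble lipoproteins, form urea and bile acids, release glucose and ketone bodies for other organs, and clear drugs and hormones. A small set of DNA-binding proteins, the hepatocyte nuclear factors with CEBP and nuclear receptor partners, drives these genes, and most of those factors also work in gut or fat. Between the hepatocytes lie resident macrophages (Kupffer cells), a fenestrated sinusoidal endothelium, retinoid-storing stellate cells and the bile duct epithelium.

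All 12 hepatocyte markers examined (Alb, Apoa1, Apob, Ttr, Serpina1a, Cps1, Cyp3a11, Cyp2e1, Tat, G6pc, Hnf4a and Asgr1) had their highest mean in liver, and their summed level was 181000 to 195000 CPM in liver against 7.99 to 13000 CPM in the other tissues, the highest of which was ileum. Of the 12, 8 passed the test against all 7 tissues described below (median log2 fold change over the highest other tissue 5.7). Markers of other cells summed in liver to 1.52 to 3.6 CPM for 7 neutrophil genes, 5.16 to 7.42 CPM for 8 lymphocyte genes, 15.9 to 21.8 CPM for 7 neuron genes, 402 to 487 CPM for 7 red cell genes and 398 to 467 CPM for 8 enterocyte genes. The enterocyte sum came mainly from Anpep (138 to 196 CPM), Apoa4 (124 to 194 CPM) and Fabp2 (76.8 to 101 CPM). Sis, Alpi and Reg3g had no count in any liver library. That sum was 14900 to 17600 CPM in ileum and at most 174 CPM, in spleen, among the remaining tissues, so liver was second to ileum. The 7 pancreas acinar genes summed to 36.3, 41.9 and 47.5 CPM in liver, nearly all of it Cela1 (34.6 to 45.9 CPM), with no count of Cpa1 in any liver library. In spleen the same sum was 13.5, 1570 and 161 CPM in replicates 1, 2 and 3, and elsewhere it was at most 15.5 CPM, so liver lay below spleen replicates 2 and 3 and above every other library. None of the tested markers of neutrophils, lymphocytes, red cells, enterocytes, acinar cells, neurons or adipocytes was higher in liver than in all 7 tissues. Their median log2 differences from the highest other tissue were −7.5, −7.74, −6.02, −9.14, −12.87, −10.54 and −8.41, or −7.06, −7.24, −6.02, −7.31, −7.76, −10.24 and −8.41 with genes of at most 3 counts set at that floor. The acinar median is set against spleen and rests on replicates 2 and 3 there. One liver library stood apart in fat cell genes. The sum of 7 adipocyte markers was 333 CPM in replicate 3 against 15.9 and 24 CPM in the other liver libraries, with Plin1, which coats fat droplets, at 0.322, 0.545 and 33 CPM in replicates 1, 2 and 3. In the fat tissues the same sum was 18200 to 40900 CPM.

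Libraries of other tissues also held transcripts of liver, gut or pancreas. Brain replicate 2 at 22 °C had 39700 CPM of Alb against 1.43 and 2.63 CPM in brain replicates 1 and 3, together with 901 CPM of the neuronal gene Snap25 against 2010 and 1760 CPM, and it is not part of the comparison. Over 88 liver transcripts (at least 500 CPM in liver and more than 512-fold above every other tissue, so that the choice itself used the 22 °C levels except those of brain replicate 2), its median level was 34.8% of that in liver. The 3 iBAT libraries at 22 °C held these transcripts at medians of 0.0443%, 0.0576% and 0.0721% of the liver level, whereas the 3 iBAT libraries at 10 °C held 0 to 0.00125%. Hypothalamus replicate 3 held 0.0194% against 0.00219% and 0.00334% in the other hypothalamus libraries at 22 °C. Spleen replicate 3 and ingSAT replicate 2 held ileum transcripts, with Fabp6, a bile acid carrier of the ileum, at 29.9 and 8.33 CPM in them and at most 1.29 CPM in the other libraries of those tissues. Spleen replicates 2 and 3 held pancreas transcripts, with the digestive protease genes Cpa1 at 197 and 16.3 CPM and Ctrb1 at 219 and 16.9 CPM, against 0.196 and 0.049 CPM in replicate 1. The source of these transcripts was not tested.

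**Figure D1:**
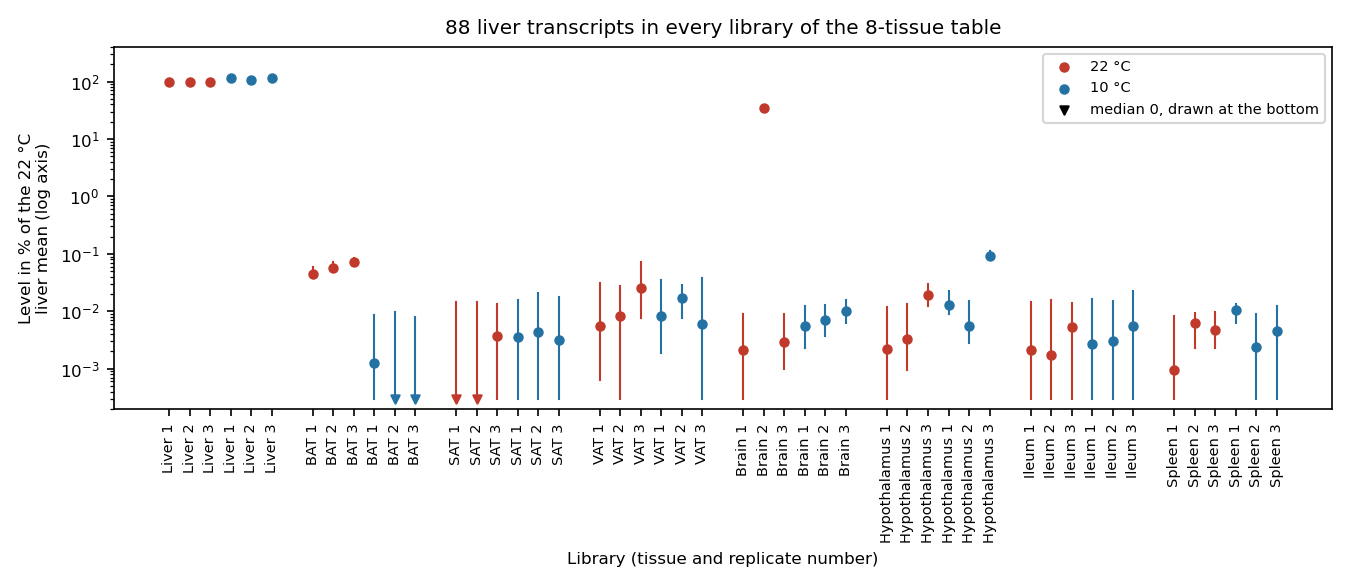
Level of 88 liver transcripts in each library of the table, in percent of the mean of the 3 liver libraries at 22 °C on a log axis; points are medians over the 88 genes, lines run from the lower to the upper quartile, red is 22 °C and blue 10 °C. Brain replicate 2 at 22 °C sits at 34.8%, the 3 iBAT libraries at 22 °C lie between 0.0443% and 0.0721%, and those at 10 °C at 0.00125% or less.

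Liver exceeded all 7 tissues in 1291 genes, 8.14% of those tested, and lay below all 7 in 784 genes, 4.94%. A gene was called when its adjusted p against every tissue, taken from the largest of its 7 p-values in edgeR's quasi-likelihood test and adjusted by the method of Benjamini and Hochberg, was under 0.05 and each of its 7 fold changes was above 1.5. Of the higher genes, 586 were above the nearest tissue by more than 4-fold, 267 by more than 32-fold and 134 by more than 512-fold, the last 121 when 18 genes with at most 3 counts in every other library were set at that floor. For 318 of them liver held at least 90% of the sum of the 8 tissue means and for 173 at least 99%. Of the lower genes, 274 lay below the nearest tissue by more than 4-fold, and 87 had at most 3 counts in every liver library. The number of lower genes was 519 without liver replicate 1 and 490 with each pair of tissues fitted alone, where the number of higher genes was 1293.

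Against single tissues liver differed in far more genes. It was higher than iBAT in 3619 genes (22.8% of those tested) and lower in 4887 (30.8%), and it was higher than ingSAT and pgVAT in 4148 (26.1%) and 4178 (26.3%) and lower in 5050 (31.8%) and 5535 (34.9%). The counts were 5462 (34.4%) and 5594 (35.3%) against brain, 5534 (34.9%) and 5656 (35.6%) against hypothalamus, 4445 (28%) and 5394 (34.0%) against ileum, and 4696 (29.6%) and 5808 (36.6%) against spleen. All 7 comparisons use the same 3 liver libraries and so are not independent of one another.

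The liver libraries were concentrated on fewer genes than the others. The 10 most abundant genes of each library took 16.8 to 18.1% of its counts in liver, 11.1 to 16.4% in iBAT, 12.0 to 15.3% in pgVAT, 12.6 to 13.9% in ingSAT and 2.5 to 6.93% in the remaining tissues. The 100 most abundant took 37.6 to 40.3% in liver and 12.4 to 32.2% elsewhere, so no other library of the comparison overlapped the liver range in either measure. The genes chosen as higher in liver have a larger share there by that choice, which is given as a description: the 1291 genes took 55.8 to 56.2% of all counts in the 3 liver libraries and 4.89 to 8.19% in the 20 others. The 267 genes above every tissue by more than 32-fold took 26.2 to 28.1% in liver and 0.0365 to 0.0705% elsewhere, and Alb alone took 4.75 to 5.22% of the liver counts. The main scaling (trimmed mean of M values, TMM) gave liver factors of 0.557 to 0.573 against 0.80 to 1.32 in the others, and all levels below are CPM so scaled. With counts scaled to library size alone the median gene moved down in liver by 0.55 to 1.21 on the log2 scale, depending on the tissue compared, and the split became 685 genes higher and 3082 lower. All 685 are among the 1291. Of the higher members of the gene lists that are discussed one by one below, 16 were not called with that scaling: Acsl4, Bdh1, C4b, Clec4g, Colec10, Cpt1a, Cyp17a1, F8, Gpr182, Igf1, Insr, Lrat, Mlxipl, Nr1h3, Nr5a2 and Pros1. Among these, the difference turned below 0 for F8 (−0.08), Gpr182 (−0.21), Pros1 (−0.04), C4b and Nr5a2. Further list members, not discussed below, also lost the call, and of them Gstz1 (−0.31) and Slco1a4 (−0.25) turned below 0.

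Plasma proteins made up most of the top of the list by level. Lars2, among the 10 genes with the highest CPM in liver, is not a plasma protein and was not called. It had 5050, 14700 and 25100 CPM in the 3 liver libraries and 6240, 22200 and 864 CPM in iBAT. By level per length (reads per kilobase of exon, scaled by depth, RPKM), Alb had 37900 RPKM, Apoa2 16000, Mup3 14700, Apoe 14500, Serpina3k 14200 and Trf 11400 RPKM. Alb (ENSMUSG00000029368, chr5:90460897-90476602 on GRCm38) encodes albumin, the main protein of plasma and its carrier of fatty acids. It stood at 83000, 89500 and 93800 CPM in the 3 liver libraries. The other libraries ranged from 0 in ileum to 80.9 CPM in iBAT, so the groups were far apart, and the difference from iBAT was 10.55 ± 1.09 (log2 fold change ± SE, adjusted p over all 7 tissues 2.30e-07). Of 24 carrier proteins and protease inhibitors of plasma, 23 were higher than in all 7 tissues, with a median log2 fold change over the highest other tissue of 9.70, beside −1.46 over all tested genes. Serpina1c, an α1-antitrypsin, had 3290, 3220 and 3690 CPM in liver and at most 2.21 CPM elsewhere (10.99 ± 0.381). The vitamin D carrier Gc, the fetuin Ahsg and the haem scavenger Hpx were above iBAT by 10.61 ± 0.934, 10.7 ± 0.663 and 10.57 ± 0.471.

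Plasma carriers with a second site of synthesis showed smaller differences. Trf, which carries iron, stood at 35000, 39900 and 38600 CPM in liver and at 4070, 4010 and 3870 CPM in ingSAT (3.25 ± 0.227). Ttr, the carrier of thyroxine and of the retinol-binding protein, had 7610, 8690 and 9790 CPM in liver and 1080 and 722 CPM in brain, where the choroid plexus is known to make it (3.27 ± 0.61). The retinol carrier Rbp4 and ceruloplasmin (Cp) were higher than in pgVAT by 3.89 and 3.16, and Itih3 was higher than in hypothalamus by 2.25. Haptoglobin (Hp), which binds free haemoglobin, was the carrier that did not pass: liver held 3210, 8100 and 4010 CPM, pgVAT 3060, 2270 and 1760 CPM and ingSAT up to 2220 CPM, and the log2 difference from pgVAT was 1.11 ± 0.382 (adjusted p 0.0958). Every liver library lay above every pgVAT library.

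The promoters of Alb, Fgb, Fga and Serpina1c are shown because each holds one copy of the motif GTTAAT close to the start of transcription, and that of Ckb, a gene lower in liver than in all 7 tissues, is shown beside them for its many CpG pairs. Each is the 150 bases before the gene's start in RefSeq on GRCm38.p6, read on the gene's own strand, with GTTAAT or its reverse complement in capitals in the first 4 and CG in capitals in Ckb. The stretch of Alb is chr5:90460720-90460869 on the plus strand, of Fgb chr3:83049864-83050013 on the minus strand, of Fga chr3:83026003-83026152 on the plus strand, of Serpina1c chr12:103904951-103905100 on the minus strand and of Ckb chr12:111672339-111672488 on the minus strand.
Alb: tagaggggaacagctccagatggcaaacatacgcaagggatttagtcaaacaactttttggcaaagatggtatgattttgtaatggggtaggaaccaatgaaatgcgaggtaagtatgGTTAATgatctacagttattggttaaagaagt
Fgb: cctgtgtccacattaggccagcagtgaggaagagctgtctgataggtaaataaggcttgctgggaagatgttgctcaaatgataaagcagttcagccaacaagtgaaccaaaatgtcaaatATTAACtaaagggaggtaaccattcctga
Fga: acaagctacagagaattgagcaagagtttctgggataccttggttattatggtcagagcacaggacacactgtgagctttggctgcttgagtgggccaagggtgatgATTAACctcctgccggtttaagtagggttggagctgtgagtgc
Serpina1c: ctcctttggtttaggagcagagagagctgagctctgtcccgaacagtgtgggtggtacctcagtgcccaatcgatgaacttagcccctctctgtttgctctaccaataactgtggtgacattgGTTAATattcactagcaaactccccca
Ckb: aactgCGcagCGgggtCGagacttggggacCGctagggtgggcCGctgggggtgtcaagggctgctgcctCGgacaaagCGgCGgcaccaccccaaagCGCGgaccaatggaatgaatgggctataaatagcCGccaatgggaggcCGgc

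The motif begins 32 bases before the start in Alb, 29 in Fgb, 43 in Fga and 27 in Serpina1c. Their windows of 300 bases (250 before and 50 after the start) hold 3, 5, 3 and 3 CpG pairs, and that of Ckb holds 22. Such matches describe the letters only and show no bound factor.

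These features were then counted over the promoters of all liver genes that had one in RefSeq, leaving out chromosome 18, whose promoters were not used here. A window was matched for 12497 of 15461 tested genes (80.8%), 1045 of 1255 genes higher in liver (83.3%), 464 of those above 4-fold and 220 of those above 32-fold. The median number of CpG pairs in the window was 19 over all tested genes, 14 over the higher genes, 5 over those above 4-fold and 3 over those above 32-fold. Windows with 5 CpG pairs or fewer made up 15.6%, 29.8%, 52.2% and 75.9% of the same sets, and 43.6% of all 27025 windows of the genome's genes outside that chromosome. GTTAAT, searched on both strands, was in 4.70% of the promoters of tested genes, in 9.70% of the higher genes, in 14.4% and 20.5% of those above 4-fold and 32-fold, and in 7.20% of all windows. AGGTCA, one arm of nuclear receptor sites, was in 12.6%, 17.4%, 25.2% and 31.4% of these sets and in 16% of all windows.

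The CEBP motif TTGCNNAA was in 9.0%, 12.8%, 17.7% and 23.6% of the promoters of the same sets and in 10.8% of all windows. Of the forkhead motif, the form TGTTTGC was in 3.80%, 6.20%, 9.10% and 11.8%, with 5.0% of all windows. The other form, TGTTTAC, rose less, with 2.6%, 4.2%, 4.5% and 5.9% (3.5% of all windows). The HNF4 motif CAAAGTCCA was rare, with 0.5%, 1.3%, 2.4% and 3.2% (0.5%), as was its second form CAAAGTTCA, with 0.4%, 1.2%, 2.2% and 3.6% (0.4%). TATAAA was in 8.5%, 12.1%, 17% and 25% (14.2% of all windows). The GC box GGGCGG went the other way, with 59.7%, 51.0%, 36.4% and 15% (35.9% of all windows), and CCAAT differed little, with 38.2%, 43.2%, 42.7% and 40.9% (37.9%). These shares move together with the CpG count of the same windows, and the part of base composition in them was not tested.

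Clotting factors followed the carriers. Of 26 genes of coagulation and fibrinolysis, 22 were higher in liver than in all 7 tissues, with a median of 9.02. The fibrinogen chains Fga and Fgb stood at 7410, 13200 and 9370 CPM and at 6090, 12300 and 8700 CPM in the 3 liver libraries. No other library exceeded 7.33 CPM of Fga or 6.84 CPM of Fgb, both in iBAT, and replicate 2 was the highest liver library for each chain. Prothrombin (F2), the inhibitor antithrombin (Serpinc1) and plasminogen (Plg) were above iBAT by 10.39, 9.41 and 10.29, and factor IX (F9) above spleen by 8.83. Protein S (Pros1) and factor VIII (F8) were higher by only 0.90 and 1.13, over ingSAT and spleen; endothelium is a known source of both. Among those not called are the vessel wall genes Vwf, Plat and F3, whose log2 differences from their highest tissue were −1.54, −5.16 and −4.0.

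Of 24 complement genes, 18 were higher in liver (median 3.43). C9, the last part of the membrane attack complex, had 1540, 2020 and 1430 CPM in liver and at most 1.02 CPM elsewhere, and C8a, C8b and Hc (complement C5) were above their highest tissue by 10.85, 10.98 and 10.91. C3, on which all complement pathways meet, stood at 17500, 15700 and 15200 CPM in liver and at 2600, 2160 and 864 CPM in ingSAT (3.11 ± 0.389). C4b was higher by 0.90 ± 0.232 over ingSAT (adjusted p 0.0120), but the call was lost without liver replicate 2 (adjusted p 0.195), without ingSAT replicate 3 (0.0799) or with pairs of tissues fitted alone (0.216), and with library size alone the difference was −0.03. C2 differed from its highest tissue by 0.31 and was not called. C1qa, C1qb, C1qc and properdin (Cfp), which macrophages and other leukocytes make, had log2 differences of −1.80 to −2.78 from spleen, and the adipocyte gene Cfd had 12.0 ± 18.9 CPM (SD, n = 3) in liver against 13900 CPM in ingSAT.

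**Figure D2:**
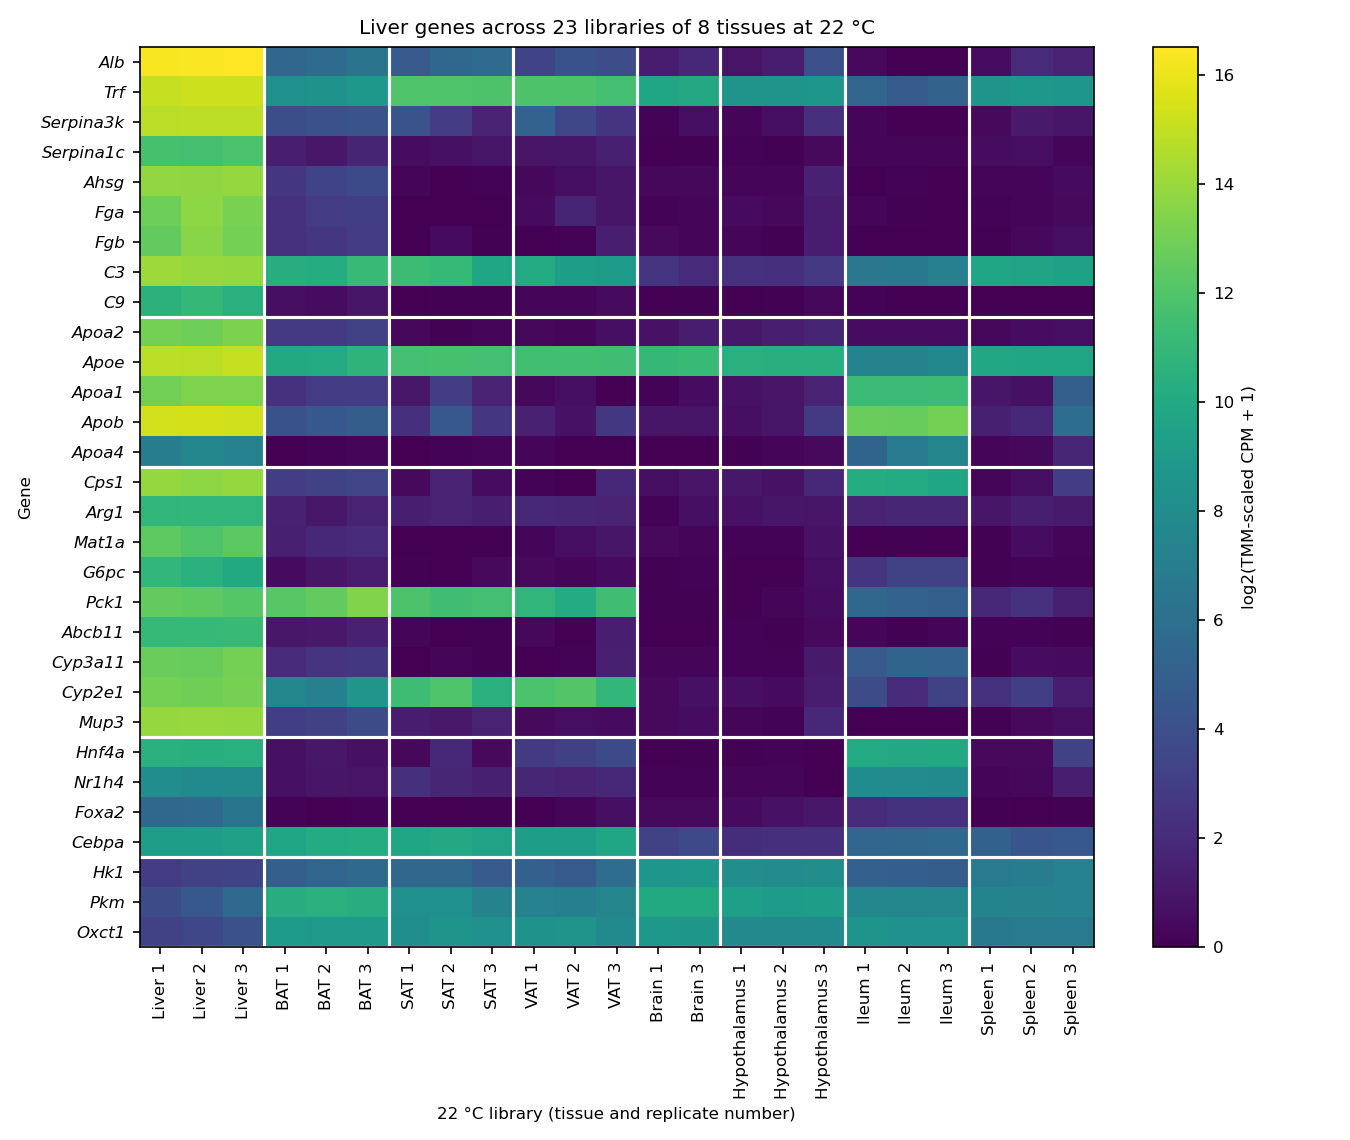
Heat map of 30 genes (rows, grouped by role) in the 23 libraries at 22 °C (columns, by tissue and replicate number), coloured by log2(TMM-scaled CPM + 1). Alb, Fga and C9 stand out in the 3 liver columns, Apob, Cps1, Hnf4a and Nr1h4 also in ileum, Pck1 and Cebpa also in the 3 fats, and Hk1, Pkm and Oxct1 are darkest in liver.

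Lipoprotein genes split by where else they work. Of 25, 14 were higher in liver than in all 7 tissues (median 2.56). Apoa2, the second protein of high-density lipoprotein, had 8560, 7430 and 9760 CPM in liver and at most 8.51 CPM elsewhere (10.29 ± 0.341), and Apoa5, Apoc4, Apof and Apom were above their highest tissue by 10.62, 10.48, 10.11 and 8.97. Apoe, which many tissues make, stood at 30100, 28300 and 34700 CPM in liver and at 3100, 3410 and 3050 CPM in ingSAT (3.28 ± 0.209). The genes of lipoprotein assembly in the gut were not called. Apob, the backbone of very low-density lipoproteins and of chylomicrons, had 43000, 45400 and 41100 CPM in liver and 6970, 6620 and 8410 CPM in ileum. The groups were well apart, yet the log2 difference of 2.56 ± 0.989 had an adjusted p of 0.182.

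Apob stood at 60.6 CPM in spleen replicate 3, and the 8 tissues share one estimate of spread. Without spleen replicate 3 its adjusted p was 0.0148. Apoa1, of high-density lipoprotein, behaved likewise, with 8250, 10400 and 10400 CPM in liver and 2460, 2500 and 2580 CPM in ileum (1.95 ± 0.836, adjusted p 0.295, and 0.00324 without spleen replicate 3). With each pair of tissues fitted alone, both genes were called (adjusted p 0.00194 for Apob and 0.00207 for Apoa1). Mttp, which loads lipid onto Apob, was at 838 ± 25.8 CPM in liver and 759 CPM in ileum, and Apoa4 at 124, 194 and 158 CPM in liver and 38.4, 107 and 180 CPM in ileum, overlapping ranges. Lpl, Vldlr and Gpihbp1, with which other tissues take up lipoprotein fat, had log2 differences of −6.76, −6.38 and −2.44 from the fats.

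Bile acids are made from cholesterol in hepatocytes, pumped into bile and taken back from the ileum. Of 29 genes of this cycle, 21 were higher in liver than in all 7 tissues (median 4.06), and they are those of synthesis and of hepatic transport. Cyp7a1, the rate-limiting enzyme, had 400, 325 and 269 CPM in liver and at most 0.988 CPM elsewhere (10.55 ± 0.447). Cyp8b1, which sets the share of cholic acid, had 1250, 1090 and 1130 CPM against at most 1.58 CPM, and the export pump Abcb11 had 2180, 2140 and 2270 CPM against at most 1.83 CPM. The conjugating enzyme Baat, the uptake carrier Slc10a1 and the mouse muricholic acid enzyme Cyp2c70 were above their highest tissue by 6.34, 6.53 and 11.05.

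The genes not called belong to the ileal arm or are shared with gut and fat. The ileal uptake carrier Slc10a2 had 26.3, 41.5 and 30.2 CPM in liver and 991, 977 and 988 CPM in ileum. Slc51a and Slc51b, which release bile acids from the enterocyte, had 531 and 225 CPM in ileum and means of 0.361 and 1.08 CPM in liver, and the ileal hormone Fgf15 had no count in liver and 20.3, 3.83 and 33.3 CPM in ileum. Fgfr4, the receptor on which that hormone acts in liver, was higher in liver by 3.64, whereas its co-receptor Klb had 73.5 ± 6.53 CPM against 158 CPM in iBAT. Nr1h4, the bile acid receptor FXR, did not separate liver from ileum, with 271, 241 and 232 CPM in liver and 256, 250 and 239 CPM in ileum (0.00 ± 0.248). Its target Nr0b2 was higher in liver by 6.63, and the sterol exporters Abcg5 and Abcg8 had log2 differences of −1.02 and −0.18 from ileum.

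All 32 genes of the urea cycle and of amino acid breakdown were higher in liver than in all 7 tissues, with a median of 6.74. Cps1, which fixes ammonia as the first step of urea synthesis, had 15100, 13600 and 15200 CPM in liver. Ileum, where Cps1 serves citrulline synthesis, had 1200, 1090 and 867 CPM, and every other library at most 10.1 CPM (3.80 ± 0.815, adjusted p 0.00233). Otc, the next enzyme, showed the same pair of tissues, with 1110, 1010 and 1070 CPM in liver and 148, 157 and 144 CPM in ileum. The steps that follow are not shared: Ass1 and Asl were above their highest tissue by 6.48 and 5.18, and Arg1, which releases urea, had 1910, 1940 and 1910 CPM in liver and at most 2.72 CPM elsewhere.

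The enzymes of single amino acids spread over the whole range. The methionine enzymes Mat1a and Bhmt were above their highest tissue by 10.92 and 11.02. The histidine pathway (Hal, Uroc1, Amdhd1 and Ftcd) lay above its highest tissues by 9.92, 10.58, 10.10 and 9.95, and tyrosine aminotransferase (Tat) and tryptophan dioxygenase (Tdo2) by 7.89 and 8.35. Below the list's median lay other enzymes of sulphur and aromatic amino acids, Cbs at 4.97, Cth at 4.01 and Fah at 3.12. The smallest difference of the 32 was that of ornithine aminotransferase (Oat), 1.88 over ileum.

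Of 18 genes of glucose production and storage, 9 were higher in liver than in all 7 tissues (median 1.66). Liver and kidney are the organs that release free glucose, and the last enzyme of that path, G6pc, had 1950, 1410 and 1060 CPM in liver and 4.71, 8.01 and 8.42 CPM in ileum, with at most 1.40 CPM in every other library (7.70 ± 0.451). Fbp1, the step before it, had 2040, 1710 and 2120 CPM against at most 13.4 CPM, and the glucose carrier Slc2a2 was above its highest tissue by 8.25. Khk and Tkfc, of fructose breakdown, were higher than in ileum by 3.0 and 2.47. Pck1, which turns oxaloacetate into phosphoenolpyruvate, was shared with fat, where it feeds glycerol synthesis: liver had 6060, 5520 and 4600 CPM and iBAT 4750, 6100 and 10700 CPM (−0.41 ± 0.38), and the ranges overlapped. Glycogen genes were shared with iBAT, with Pygl at 1220, 1200 and 1310 CPM in liver and 1280, 1500 and 894 CPM in iBAT, and Gys2 at 235 ± 13.9 CPM against 131 CPM (0.84 ± 0.342, adjusted p 0.233). Gys2 was called higher with pairs of tissues fitted alone (0.96, adjusted p 0.009).

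Liver forms ketone bodies from fatty acids and does not burn them. Of 8 tested genes of these paths, 4 were higher than in all 7 tissues and 1 was lower (median 0.39). Bdh1, which interconverts the ketone bodies, and Cpt1a, which admits fatty acids to mitochondria, were higher by 1.84 and 1.42 over ileum. With library size alone neither was called (0.96, adjusted p 0.0616, and 0.54, adjusted p 0.141). Oxct1, the transferase with which other tissues use ketone bodies, had 8.49, 10.7 and 16.4 CPM in liver. The lowest other tissue, spleen, had 101, 107 and 113 CPM, and iBAT 532, 482 and 498 CPM, so liver was lower than all 7 tissues (−3.17 ± 0.208 against spleen, adjusted p 6.71e-09). Ppara, the nuclear receptor for fatty acids, was at 332 ± 25.1 CPM in liver and 514 CPM in iBAT.

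Drug metabolism gave large differences. Of 24 genes, cytochromes P450 with their reductase Por, 19 were higher in liver than in all 7 tissues, with a median of 9.68, or 9.29 with Cyp2c37, at most 3 counts in every other library, set at that floor. Cyp3a11, the main steroid and drug hydroxylase, had 7000, 6600 and 8530 CPM in liver and 23.1, 39.2 and 35.3 CPM in ileum (7.82 ± 0.664), and Cyp1a2, which oxidises caffeine, had 1130, 941 and 984 CPM and at most 0.700 CPM elsewhere. Cyp2e1, which oxidises ethanol, was shared with white fat: liver had 8750, 7890 and 8800 CPM, pgVAT 3700, 4360 and 1930 CPM and ingSAT 2700, 3990 and 1460 CPM. The groups did not overlap, and the log2 difference from pgVAT was 1.35 ± 0.538 (adjusted p 0.215, and 0.0354 with pairs of tissues fitted alone). Cyp2b10, Cyp3a13, Cyp4f14 and Por were not called either, with log2 differences of −2.39, 0.44, −0.59 and −0.29.

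Of 23 conjugating and hydrolysing enzymes, 19 were higher in liver (median 3.71). The carboxylesterases Ces3a and Ces1c had 3270 to 3350 and 3390 to 4070 CPM in liver, with Ces3a at most 3.29 CPM elsewhere and Ces1c at most 7.61 CPM. The glucuronyl transferase Ugt2b1 was above iBAT by 10.76 and Ugt1a1, which conjugates bilirubin, above ileum by 3.64. Sult1d1 (190 ± 12.2 CPM), Nnmt (227 ± 10.2), Gsta4 (131 ± 28.3) and Ugt2b34 (1150 ± 40.7) did not pass, with log2 differences of 0.02, 0.44, 0.63 and 1.22. With pairs of tissues fitted alone Gsta4 and Ugt2b34 were called (adjusted p 0.00996 and 2.61e-05). Many P450, esterase and transferase genes are near copies of one another, and reads shared between copies may have been dropped or misassigned in the counting, so values of single members are uncertain.

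The mice were males, and genes known for higher levels in male mouse liver were prominent. All 15 tested members of that list were higher in liver than in all 7 tissues, with a median of 10.41, or 10.06 with Mup1 at its floor. Mup3, one of the major urinary proteins that carry pheromones, had 15400, 16000 and 15600 CPM in liver and at most 12.7 CPM elsewhere (10.70 ± 0.815). Elovl3, which lengthens fatty acids, had 1800, 1630 and 1980 CPM in liver and was also found in iBAT at 94.0, 60.7 and 100 CPM (4.41 ± 0.845). Of 14 genes known for higher levels in female liver, 10 did not reach the level for testing, with a maximum of 28 counts in any liver library (Cyp3a16). Of the 4 tested (median −3.9, or −3.48 with Hao2 at its floor), Cyp17a1 was higher in liver, with 17.5, 14.4 and 19.3 CPM and at most 6.26 CPM in pgVAT, and Fmo2 and Cux2 had log2 differences of −2.13 and −5.66 from pgVAT and brain. Hao2 had at most 0.215 CPM in liver and 9.36 CPM in ileum. Mup genes are near-identical copies, with the same limit on single members: Mup2 had 24.1, 18.1 and 22.1 CPM in liver and no count in any other library, at least 36.1-fold higher than 3 counts in the smallest of them. Mup16 had 847, 702 and 570 CPM in liver and at most 0.212 CPM elsewhere.

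Many transcription factors of the liver were shared with another tissue. Of 24 factors, 13 were higher in liver than in all 7 tissues, with a median of 0.80. Hnf4a, the central factor of hepatocytes, had 1450, 1300 and 1430 CPM in liver and 1090, 994 and 1060 CPM in ileum, groups that did not overlap, with a log2 difference of 0.41 ± 0.59. Cebpa was highest in fat: 620, 625 and 702 CPM in liver, 884, 1150 and 1180 CPM in iBAT. Differences above 5 on the log2 scale were those of Nr0b2 (6.63), the xenobiotic receptor Nr1i3 (6.13), Gata4 (5.20) and Onecut1 (5.09). Onecut1 had 111, 75.4 and 92.2 CPM in liver and at most 2.94 CPM elsewhere, in hypothalamus, and Foxa2, a pioneer factor, 45.7, 50.1 and 84.3 CPM against at most 4.47 CPM in ileum. Small differences among the called factors depended on the scaling or on single libraries: Nr5a2 (0.80 over ileum) was at −0.08 with library size alone, Nr1h3 (0.90 over iBAT) was not called there, and Mlxipl (0.66 over iBAT) was lost without iBAT replicate 3 (adjusted p 0.0957) or liver replicate 1 (0.0636).

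Of 21 tested hormones, hormone receptors and iron signals, 18 were higher in liver (median 3.02). Hepcidin (Hamp), which closes iron export, had 216, 178 and 222 CPM in liver and at most 0.295 CPM elsewhere (10.33 ± 0.37), and the iron sensor Tfr2 was above spleen by 4.92. The glucagon receptor (Gcgr) was above pgVAT by 8.70, while the insulin receptor (Insr) was higher than iBAT by only 0.70 and the receptors for growth hormone (Ghr) and prolactin (Prlr) did not pass, with −0.79 and −0.17. Igf1, the growth factor that growth hormone induces, had 1420, 935 and 1090 CPM in liver and 628, 726 and 293 CPM in pgVAT. Its difference of 1.06 ± 0.276 was called (adjusted p 0.0131), but not without liver replicate 1 (0.0731), with pairs of tissues fitted alone (0.115) or with library size alone, where it was 0.10. Selenop, the plasma carrier of selenium, had 9300, 9910 and 9570 CPM in liver and 2620, 2210 and 2780 CPM in ileum (1.92), and Dio1, which activates thyroid hormone, was higher than in ileum by 3.02. None of 8 tested genes of fetal liver was higher (median −5.43, or −4.41 with 3 genes at their floor), and Afp stood at 5.52 ± 1.18 CPM.

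Hepatocytes differ along the lobule, from the portal vessels to the central vein. Of 15 periportal genes, 10 were higher in liver than in all 7 tissues (median 4.85), and of 15 pericentral genes, 7 (median 1.35). These lists were not tested against each other. The pericentral enzyme Gulo, the last step of vitamin C synthesis, had 1110, 1020 and 1160 CPM in liver and at most 0.848 CPM elsewhere, whereas Glul, which makes glutamine around the central vein, had 1780, 1740 and 1860 CPM in liver and 2130, 2200 and 2990 CPM in iBAT. The targets of Wnt signalling Axin2, Lgr5, Tbx3 and Rnf43 had log2 differences of −2.02, −0.39, −1.05 and 0.20 from ileum. On the portal side, Cyp2f2, Hal and Sds were higher by 4.37, 9.92 and 6.99, and Pigr, Sdhd, Aldh1b1, Ctsc and Pck1 did not pass.

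Cells between the hepatocytes were seen by some markers only. Of 10 Kupffer cell markers (median −1.25), 3 were higher in liver than in all 7 tissues: Clec4f, Vsig4 and C6. Clec4f, a lectin of Kupffer cells, had 98.1, 189 and 184 CPM in liver and at most 0.198 CPM elsewhere. The others are shared with spleen macrophages or other resident macrophages, with Cd5l at 121 ± 48.2 CPM in liver and 132 CPM in spleen. Of 10 sinusoidal endothelial markers (median −0.51), Clec4g, Oit3 and Gpr182 were higher by 1.76, 3.14 and 1.0 over spleen, which also has sinusoids, and Stab2 stood at 151, 220 and 212 CPM in liver against 369, 376 and 318 CPM there. With library size alone the difference of Clec4g was 0.54 and that of Gpr182 −0.21, and neither was called. Of 10 stellate cell markers (median 0.48), the retinol esterifier Lrat and the lectins Colec10 and Colec11 were higher by 1.44, 2.25 and 4.95, although Colec10 was not called with DESeq2 (adjusted p 0.159). None of 9 bile duct markers was higher (median −7.95): Krt19 and Epcam had 2.93 and 2.46 CPM in liver and 1770 and 2400 CPM in ileum, and Spp1 had 51.0, 109 and 70.0 CPM against 48.4 and 46.0 CPM in brain. Clec4f, Stab2 and Spp1 were each lowest in liver replicate 1.

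**Figure D3:**
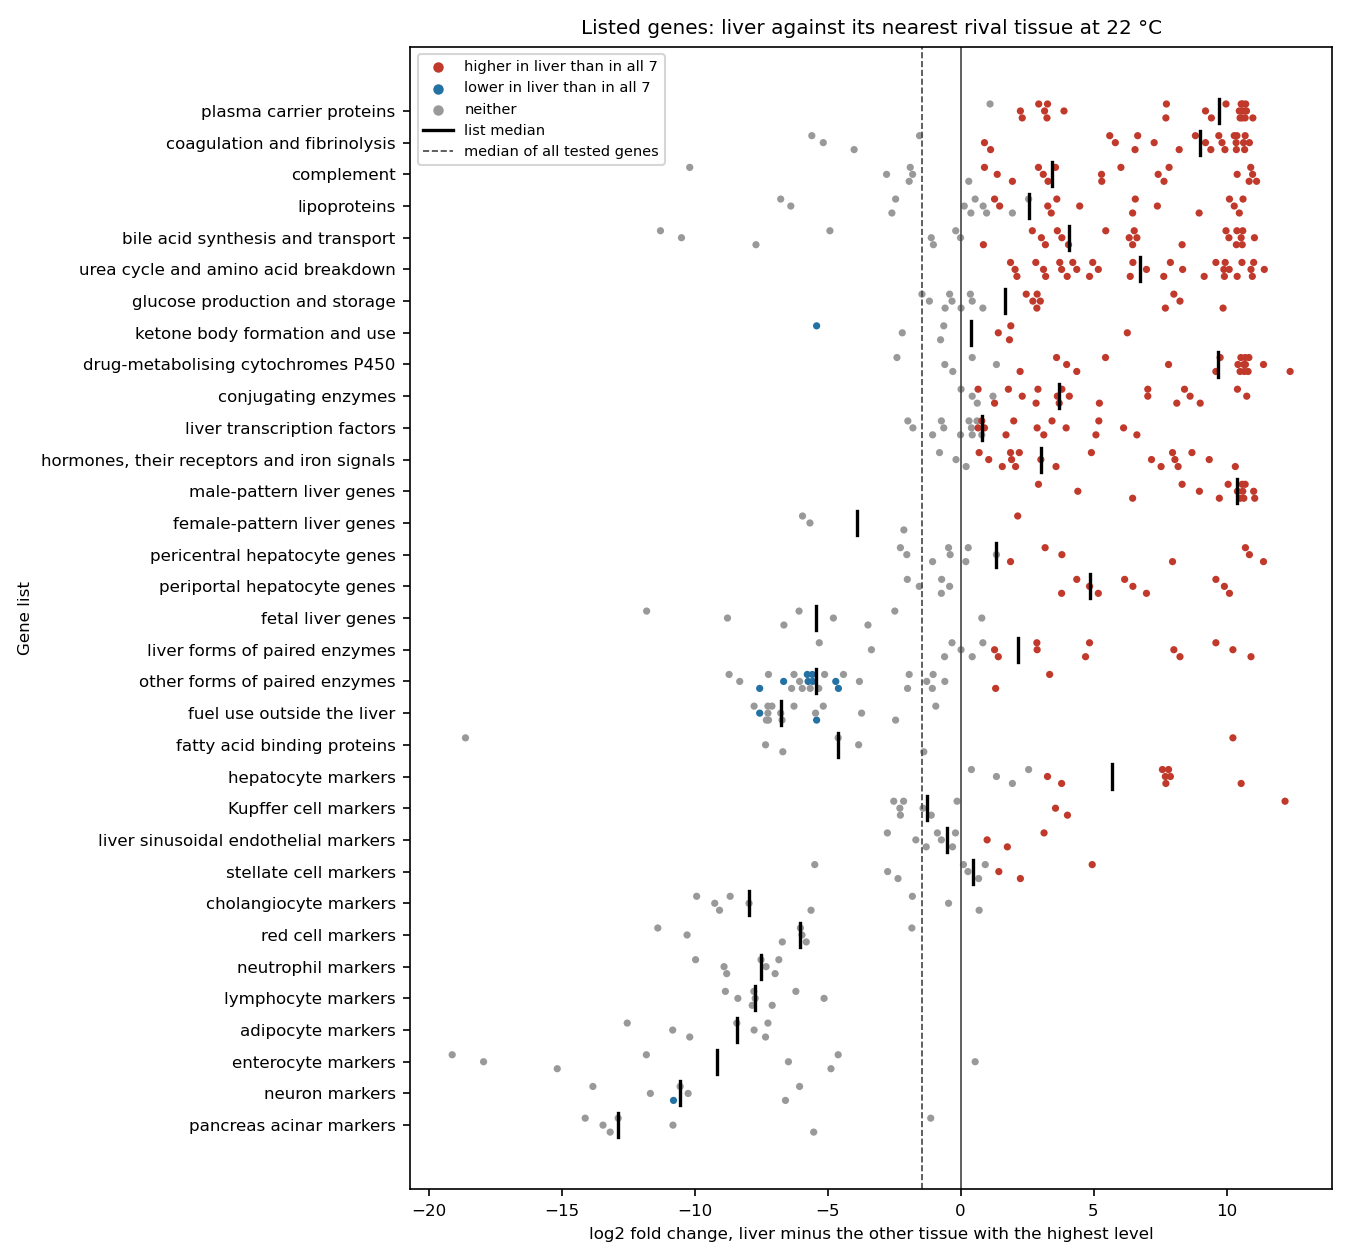
log2 fold change of liver against the other tissue with the highest level, for the tested members of 33 gene lists (rows; each point is a gene, red if higher in liver than in all 7 tissues, blue if lower than in all 7, grey otherwise; black bars are list medians and the dashed line is the median of all tested genes, −1.46). Plasma carriers, P450 genes and male-pattern genes have medians of 9.70, 9.68 and 10.41, transcription factors one of 0.80, and points below −10 include genes with no liver count, whose fitted fold is not a measured size.

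Several enzymes exist in a liver form and in forms of other tissues. Of 18 genes of liver forms, 11 were higher than in all 7 tissues and none lower (median 2.14), whereas of 28 genes of the other forms 2 were higher and 8 lower (median −5.44). The low-Km hexokinase Hk1 had 6.66, 8.62 and 9.24 CPM in liver and from 24.2 to 453 CPM elsewhere, lower than in all 7 tissues (−1.88 ± 0.277 against ileum, adjusted p 0.000108). The muscle and brain form of pyruvate kinase, Pkm, had 13.3, 22.4 and 48.0 CPM in liver, the highest in replicate 3, and at least 137 CPM elsewhere (−2.51 ± 0.320 against pgVAT). Its liver form Pklr was at 153, 162 and 162 CPM in liver and, not far below, at 114, 118 and 119 CPM in ileum (0.44 ± 0.216, adjusted p 0.497).

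Per length, the mean in liver was 1430 RPKM for Mat1a against 26.3 RPKM for Mat2a, 861 RPKM for Arg1 against 0.355 RPKM for Arg2, and 49.1 RPKM for Pklr against 5.58 RPKM for Pkm. Phosphofructokinase had no such gap, with 12.3 RPKM for Pfkl and 12.1 RPKM for Pfkm, and Pfkl, though called the liver form, had 81.9 ± 11.1 CPM in liver against 834 CPM in iBAT. Of the pyruvate dehydrogenase kinases, which turn off glucose oxidation, Pdk4 was listed as the liver form but stood at 72.3, 36.7 and 93.3 CPM in liver, below Pdk1 at 152, 136 and 182 CPM, and per length the means were 19.2 and 20.1 RPKM. Also lower than in all 7 tissues were Pygb, Slc2a3, Cpt1c, Pfkp and Pdk3, the last not so with pairs of tissues fitted alone (adjusted p 0.153). The exceptions were Adh7, at 60.9, 60.2 and 43.0 CPM in liver and at most 6.52 CPM elsewhere, and Acsl4, at 235 ± 37.0 CPM against 94.0 CPM in brain (1.32 ± 0.323), a call lost without either brain library (adjusted p 0.0521 and 0.122) and with pairs of tissues fitted alone (0.0565).

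**Figure D4:**
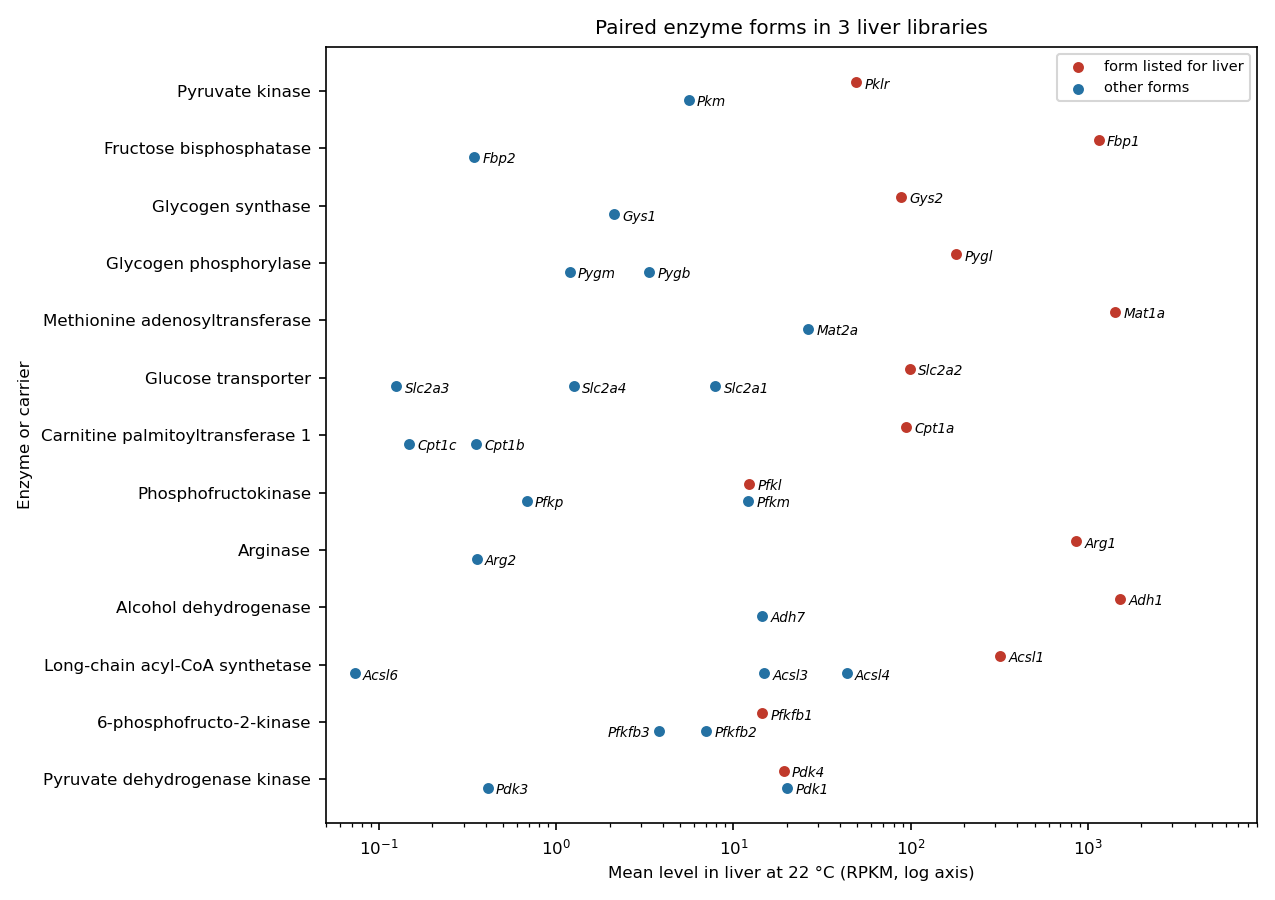
Mean level in 3 liver libraries at 22 °C, in RPKM on a log axis, of 13 enzymes or carriers that exist in several forms (rows; red is the form listed for liver, blue the others). The gap is wide for arginase (861 against 0.355 RPKM) and almost none for phosphofructokinase (12.3 against 12.1 RPKM), and red lies left of the rightmost blue point for pyruvate dehydrogenase kinase (19.2 against 20.1 RPKM).

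The fatty acid binding proteins, small carriers of fatty acids in the cytosol, divide in the same way. Of 7 tested (median −4.6), Fabp1 alone was higher in liver, with 5460, 4980 and 6490 CPM and at most 5.24 CPM elsewhere (10.24 ± 0.523). Fabp1 is also known from the small intestine, and here it had 3.55, 5.10 and 5.24 CPM in ileum. The ileum libraries held instead Fabp2 (2470, 2400 and 1750 CPM) and Fabp6 (2570, 3400 and 3300 CPM), which in liver stood at 94.7, 76.8 and 101 CPM and at no count in any library. Fabp4, of adipocytes, had 11.2, 15.4 and 201 CPM in liver, the third value again from replicate 3, and 13300, 11600 and 11800 CPM in iBAT. Of 16 genes of fuel use outside the liver, none was higher and 2, Oxct1 and the brain creatine kinase Ckb, were lower than in all 7 tissues (median −6.73). Ckb had 6.66, 8.4 and 8.15 CPM in liver and at least 19.4 CPM elsewhere (−1.78 ± 0.273 against iBAT, adjusted p 0.000171), with 1380 and 1520 CPM in brain.

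Of the 784 lower genes, the 15 with the largest fitted difference had no count in any liver library, so their fitted folds are not measured sizes and bounds are given against a floor of 3 counts, 0.325 CPM. The bounds ran from 1.17-fold to 10.5-fold, 6 of them under the 1.5-fold limit of the call, and 4 of the 15 genes were called with pairs of tissues fitted alone. Bmp3, a ligand of the bone morphogenetic family, had at least 2.54 CPM in every other library and was at least 10.5-fold higher in iBAT, its lowest other tissue. For the potassium channel gene Kcnh2, the glycosyltransferase Gxylt2, the growth factor Fgf7 and the developmental factor Eya1 the bounds were 4.85-fold, 4.03-fold, 3.87-fold and 3.53-fold. Gxylt2 and Eya1 were not called with pairs fitted alone (adjusted p 0.0632 and 0.0808), and Eya1 not without liver replicate 1 (0.0527) or ingSAT replicate 3 (0.0531). The neuronal gene Stmn2 was the marker of another cell type among the lower genes (0.109 ± 0.188 CPM in liver), a call lost with pairs fitted alone (adjusted p 0.242).

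The tissue nearest to liver differed among the higher genes. For each of the 1291 genes the other tissue with the highest mean CPM was noted. It was iBAT for 346 (26.8%), ileum for 332 (25.7%), pgVAT for 194 (15%) and spleen for 131 (10.1%). It was brain for 121 (9.37%), ingSAT for 84 (6.51%) and hypothalamus for 83 (6.43%). Over all tested genes the shares were 18.7% for iBAT, 16.3% for ileum, 7.85% for pgVAT, 21.5% for spleen, 17.4% for brain, 4.23% for ingSAT and 14.1% for hypothalamus. Of the 134 genes above 512-fold, iBAT was the nearest for 78 and pgVAT for 32, and iBAT at 22 °C is the tissue with the traces of liver transcripts described above, while the 3 pgVAT libraries held them at 0.00553%, 0.00837% and 0.0253%. The part of the traces in these numbers was not tested. Where ileum was the nearest, some genes had a high level there, among them Cps1, Otc and Selenop. Left out of the panel one at a time, iBAT changed the number of higher genes from 1291 to 1730, ileum to 1617, and each other tissue to between 1275 and 1392.

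**Figure D5:**
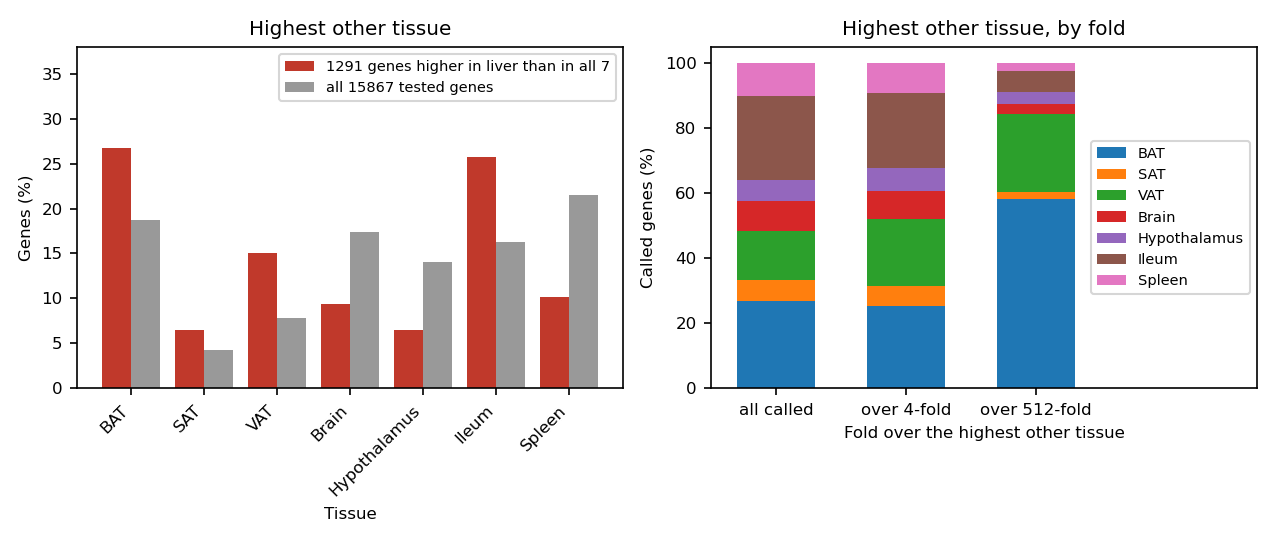
Left, percent of genes for which each tissue is the highest after liver, among the 1291 genes higher in liver than in all 7 tissues (red) and among all 15867 tested genes (grey, liver left aside); right, the same for all called genes and for those above 4-fold and 512-fold, stacked to 100%. iBAT (26.8%) and ileum (25.7%) lead among the called genes, and iBAT is the nearest tissue for 78 of the 134 genes above 512-fold.

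Many liver genes had another close by on the chromosome. Of 1290 higher genes with a position, 514 (39.8%) had another within 100 kb, against 2861 (19.6%) of 14566 other tested genes that had a higher gene within that distance, and gene families count in both. The α1-antitrypsin cluster (chr12:103728156-104044443) held 7 higher genes of 8 tested, with a summed liver level of 25643 CPM. A cluster at chr16:22813214-23082078 held 7 of 7, among them Ahsg, Fetub, Hrg, Kng1 and Kng2, with 19540 CPM. Apoe, Apoc1, Apoc4 and Apoc2 lie side by side (chr7:19671579-19699188), with 38716 CPM, and were higher 4 of 4. Families of like genes formed further clusters, with 5 of 5 Cyp4a genes on chromosome 4, 4 of 4 Cyp2c genes on chromosome 19 and 4 of 4 Ugt2b genes on chromosome 5. At chr11:120530699-120796403, 8 of 22 tested genes were higher, among them Gcgr and P4hb.

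The 3 liver libraries agreed closely, with correlations of log2 CPM from 0.982 to 0.99. Among genes of at least 10 CPM in liver, the coefficient of variation had a median of 8.69% over 1283 higher genes and of 8.32% over 7969 others. A few liver genes varied far more, and these were picked for their spread after the values were seen. Cyp4a14 and Cyp4a10, ω-hydroxylases of fatty acids that PPARα induces, had 951, 120 and 704 CPM and 876, 269 and 648 CPM in replicates 1, 2 and 3. Other genes were highest in replicate 2: Fgl1 had 269, 873 and 313 CPM, Lrg1 419, 833 and 389 CPM, Hpx 5280, 10800 and 6610 CPM, and Lbp 135, 232 and 131 CPM. These are known from the acute-phase response, as is Saa1 with 31.9, 521 and 47.2 CPM. Not all genes known from that response were highest there, since C3 and Hamp, given above, were not. In the 3 liver libraries at 10 °C, Cyp4a14 again spread widely (73.6, 548 and 706 CPM), and Hpx less (9160, 6870 and 9000 CPM).

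The comparison was repeated in libraries that, apart from 3 of quadriceps described below, came from other mice. In 24 libraries of the same 8 tissues at 10 °C, liver exceeded all 7 tissues in 1199 genes (7.53% of those tested there). Of the 1291 genes, 1286 were tested at 10 °C and 1065 were called again, 82.8% of the former and 88.8% of the 1199. A second set of 22 °C libraries holds liver, iBAT, brain and ileum with 3 libraries each and quadriceps muscle with 6. Its iBAT libraries are labelled as 1 mouse each and its others as pools of 2 mice, so single animals and pools share one estimate of spread. The mice are labelled as 12 weeks old. Per the study's methods those of the warm experiment came from Charles River and the others from Janvier, and the second set was sequenced in Geneva rather than Göttingen, its warm-experiment libraries with another kit. By their column names 3 of the quadriceps libraries are controls of the cold experiment and 3 of the warm one. The 6 are therefore not one group of animals. The labels do not say whether the 3 of the cold experiment share mice with the main comparison. There 1450 genes were higher in liver than in the 4 other tissues (9.72%), and 951 of the 1206 liver genes tested were among them, 78.9% of the former and 65.6% of the 1450. Some liver genes were higher in muscle. Of the 1018 liver genes called again in this set without quadriceps, 16 were higher in quadriceps than in liver. Liver genes not called again there were not examined for this. Among the 16 were the lipid droplet gene Fitm1 (216 ± 48.0 CPM, n = 6, against 32.4 ± 3.7 CPM, n = 3, log2 difference −2.74), Pacsin3 (−1.95), Hspb8 (−1.64) and Park7 (−1.30). With the quadriceps libraries of the cold experiment alone all 16 were higher in quadriceps, with those of the warm experiment alone 14 (not Nme6 and Oma1), and Fitm1 ranged from 196 to 313 CPM in the former and from 182 to 202 CPM in the latter. The ranges of the quadriceps libraries overlapped between both experiments for each of the 16 genes. Lower genes numbered 750 at 10 °C (4.71%) and 1261 in the second set (8.46%), with 537 of the 784 among the former and 505 of 723 tested among the latter. Without quadriceps 1018 of 1210 were called again (84.1%). Kidney, which shares many of these genes, is not part of the panel.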

How the data were processed

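RNA sequencing libraries of mouse tissue were compared, with raw counts per gene as the unit. They are pools of 2 mice, except the iBAT libraries of the second set, labelled as 1 mouse each. The authors deposited whole-number counts for 21647 Ensembl genes; the submitters' processing notes name STAR 2.5.3a, HTSeq 0.6p1, Picard 1.141 and the mm10 genome, and how reads shared by near-identical genes were counted was not given in the sources used here. Symbols and positions for 21583 identifiers came from GENCODE on GRCm38. The 23 libraries at 22 °C held 4262403 to 25964912 counts, the liver libraries 16243271 to 16534838, so low genes are measured with less precision in the shallow pgVAT libraries. The labels do not say that libraries are separate cultures or animals beyond the pooling of 2 mice in each, and p-values therefore measure the spread between these libraries.

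The 15867 genes whose average log2 CPM exceeded 0 were fitted with edgeR 4.0.16 in R 4.3.3 (TMM scaling, one quasi-likelihood fit of 23 libraries with tissue as the only term, 15 residual degrees of freedom). Liver was tested against each tissue, two-sided, with Benjamini-Hochberg adjustment over all genes. For the call against all 7 tissues the largest of the 7 p-values was adjusted, and every fold had to exceed 1.5. Values are mean TMM-scaled CPM ± SD with n = 3 (brain n = 2), and log2 fold changes ± SE are against the other tissue with the highest mean CPM. Each SE was derived from the test, as the size of the log2 fold change divided by the square root of its F statistic. It is therefore only an approximate precision of the fold change, above all where the other tissue has few counts or the difference is near 0. The steps of 4-fold, 32-fold and 512-fold use the smallest of the 7 fitted fold changes. Where all libraries of a group were at 0, folds were computed against 3 counts in the smallest library. RPKM used exon lengths of the same annotation. The scripts were tested on simulated data.

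Genes named were the 25 higher and 15 lower genes with the largest differences, the 10 with the highest liver CPM, the 4 highest members of each of 33 gene lists with every member against the direction of its list, all members of the transcription factor, fatty acid binding protein and paired enzyme lists, and the 2 highest genes for each nearest tissue. Other genes named were chosen after their values were seen. The gene lists and members were chosen with earlier results of these data known. Alternatives were DESeq2 1.42.0, other scalings and filters, pairs of tissues fitted alone, a replicate block, a 4-fold limit, unadjusted limits, brain replicate 2 added, each library or tissue left out and, chosen after seeing the data, a robust fit and quadriceps libraries of one experiment at a time. Brain replicate 2 was otherwise left out. Promoters came from RefSeq on GRCm38.p6. Some members of the lists are counted but not named and are not reported here.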

Additional observations from a re-analysis of the deposited data

Results flagged for a closer look

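Brain replicate 2 at 22 °C, which was left out of the comparison and added to it only as an alternative, held 88 liver transcripts at a median of 34.8% of their liver level, with single genes from 21 to 52.2%, whereas brain replicates 1 and 3 held 0.00214% and 0.00295%.

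The 16 liver genes given above as higher in quadriceps were picked among those called again in the second set without quadriceps. Of these 16, 3 had one quadriceps library of 6 far from the rest. The gap between the outermost library and its neighbour, as a share of the whole range, exceeded Dixon's 95% critical value for 6 samples. The ratio was 0.817 for Fitm1 (182 to 313 CPM), 0.681 for C2cd2 (270 to 378 CPM) and 0.894 for Nme6 (25.1 to 35.5 CPM). The 6 libraries are controls of 2 experiments, 3 each. Chance gives such a gap in about 1 in 20 groups.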

How the results depend on the processing

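With counts scaled to library size alone, liver was higher than all 7 tissues in 685 genes and lower in 3082. Lower genes then numbered 7727 against iBAT, and higher and lower genes 1895 and 9606 against ingSAT, 1785 and 9995 against pgVAT, 3033 and 8548 against brain, 2807 and 9272 against hypothalamus, 2177 and 9273 against ileum, and 2273 and 10221 against spleen. The counts were 619 at 10 °C and 832 in the second set, C4b against ingSAT turned to −0.03 and Nr5a2 against ileum to −0.08. This scaling lowers all liver values by construction. A 4-fold limit left 586 higher and 274 lower genes against all 7 tissues, 1699 and 2099 against iBAT, 1508 and 2925 against ingSAT, 1406 and 3205 against pgVAT, 2562 and 3623 against brain, 2551 and 3628 against hypothalamus, 1616 and 3007 against ileum, and 2179 and 3060 against spleen.

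With brain replicate 2 added, 619 genes were higher, 617 of them among the 1291. Lower genes numbered 490 with pairs of tissues fitted alone and 1190 with unadjusted limits; the cause was not tested. DESeq2 called 1291 higher and 833 lower genes, with 1246 and 733 of the main ones among them, and 41 genes had no DESeq2 p in at least 1 contrast. DESeq2's size factors gave 1290 and 761, other filters 1318 and 1397 higher genes, and the robust fit the same 1291 and 784 genes. Of 220 named genes, 209 kept direction and side of the threshold with DESeq2 and 195 with pairs fitted alone.

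With one library left out, higher genes numbered 1242 to 1361 and lower genes 519 (without liver replicate 1) to 807. Higher and lower genes were 3605 to 3930 and 4344 to 4928 against iBAT, 4013 to 4241 and 4843 to 5162 against ingSAT, 4167 to 4338 and 5236 to 5571 against pgVAT, 5203 to 5605 and 5371 to 5626 against brain, 5419 to 5573 and 5545 to 5676 against hypothalamus, 4365 to 4501 and 5123 to 5435 against ileum, and 4586 to 5068 and 5185 to 5828 against spleen. At 10 °C the higher genes numbered 1051 to 1272 and in the second set 1384 to 1468, or 1419 and 1445 with the quadriceps libraries of the cold or of the warm experiment alone.

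Deviations of same-numbered libraries of liver and another tissue correlated at −0.128 to 0.126 over 20 pairs, 1 of them over 0.1. Different tissues of the same mice need not deviate alike, so these values cannot tell whether such libraries share mice. With the replicate block 1287 genes were higher and 755 lower, 1278 and 743 of them shared, and of the named genes Acsl1 against iBAT alone changed its call. Depth limits the pgVAT values most, where 3 counts in the smallest library are 0.593 CPM.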
